A study of Mus musculus with 2 samples.

Results

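The interferon-inducible GTPases of the guanylate-binding protein (GBP) and immunity-related GTPase (IRG) families were described in purified pancreatic beta cells, the insulin-secreting cells of the islet. The 10 genes were Gbp2, Gbp3, Gbp4, Gbp7, Igtp, Irgm1, Irgm2, Iigp1, Ifi47 and Gm4841, matched by symbol among 55487 listed genes, and each was found under a single identifier. They were chosen by the ratio of their reads between the 2 sequenced libraries, so their ratios are given here as a description and were not tested. Both libraries came from mice 2 months old whose genotype label reads MytF/F; Myt2F/F; Myt3F/F; RipCre. These are floxed alleles of the 3 myelin transcription factor genes Myt1, Myt2 (Myt1l) and Myt3 (St18), with a Cre recombinase driven by the rat insulin promoter. The islets were trypsinised and the cells sorted by flow cytometry, and both sexes were pooled per the labels. Library 2 is labelled a duplicate of library 1, and nothing in the labels says whether it came from other mice. The libraries therefore form 1 group (n = 2), and whether their difference is technical or lies in the mice was not tested. The study asked which genes of beta cells depend on the Myt factors at normal blood glucose. Control cells were not analysed here, so no value below compares mutant with control cells.

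The libraries stood apart in other respects. Xist, the RNA of the inactive X chromosome, stood at 653 CPM (reads scaled to the library total) in library 2 against 5.01 CPM in library 1, although both are labelled as pooled sexes, and the 4 Y-linked genes measured summed to 170.0 CPM in library 2 against 293 CPM in library 1. A list of 15 acinar markers, genes of the digestive-enzyme cells around the islets, summed to 705 CPM in library 2 against 154 CPM in library 1. The targeted genes had reads in both libraries, with Myt1 at 65.4 CPM in library 2 against 77.6 CPM in library 1, Myt1l at 39.05 CPM in library 2 against 44.5 CPM in library 1, and St18 at 56.5 CPM in library 2 against 72.7 CPM in library 1. A count over the whole gene does not check a deletion of floxed exons.

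Interferons are cytokines that signal through JAK kinases and STAT transcription factors, and STAT and IRF factors switch on the GBP and IRG genes. The encoded GTPases assemble on the vacuoles of intracellular parasites and bacteria and help to rupture them or to mark them for destruction. GBPs are large GTPases, several of which are anchored to membranes by a prenyl group. IRG proteins fall into effectors with the usual lysine in the nucleotide-binding loop (GKS type), such as the products of Iigp1 (Irga6) and Ifi47 (Irgd), and regulators with a methionine there (GMS type), the products of Irgm1, Irgm2 and Igtp (Irgm3). The regulators sit on the cell's own membranes and hold the effectors inactive there. In beta cells, interferon exposure is known to raise these genes together with antigen presentation genes.

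The promoters of the genes are shown first, since IRF and STAT proteins bind short motifs there. RefSeq promoter windows (GRCm38.p6) ran from 250 bases before to 50 bases after the start of transcription. They were used for 7 of the 10 genes, namely Gbp2, Gbp3, Gbp7, Igtp, Irgm1, Irgm2 and Ifi47. The core of the interferon-stimulated response element was searched as GAAANNGAA on both strands, and it occurred in 2812 of 32851 windows of all genes (8.56%). Of the 7 genes, 6 held it, and Ifi47 was the one that did not. Gbp3 had a further window, which did not hold the core. Of 9 other GBP and IRG genes with a window, 6 held the core. The STAT motif was searched as TTCNNNGAA, which reads the same on both strands. It occurred in 8.30% of all windows, in those of Gbp7, Igtp and Irgm2, and in those of 4 of the 9 other family genes. No match of one motif overlapped a match of the other in these windows. Below are 60 bases around the first response element match of Gbp2, Gbp3, Gbp7, Irgm1, Igtp and Irgm2. They read 5′ to 3′ on the strand of the gene, with matched bases in capitals.
Gbp2: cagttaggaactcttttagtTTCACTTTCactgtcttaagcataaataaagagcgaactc
Gbp3: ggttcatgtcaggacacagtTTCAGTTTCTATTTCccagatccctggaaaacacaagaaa
Gbp7: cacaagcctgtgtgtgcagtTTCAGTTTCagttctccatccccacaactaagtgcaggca
Irgm1: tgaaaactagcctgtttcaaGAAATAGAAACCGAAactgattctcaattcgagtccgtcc
Igtp: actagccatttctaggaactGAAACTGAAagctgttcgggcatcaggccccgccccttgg
Irgm2: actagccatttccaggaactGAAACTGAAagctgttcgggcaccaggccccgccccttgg

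The stretches lie at chr3:142620585-142620644 for Gbp2, chr3:142559980-142560039 for Gbp3 and chr3:142530264-142530323 for Gbp7, all on the plus strand. The others lie at chr11:48871411-48871470 on the minus strand for Irgm1, and at chr11:58199502-58199561 for Igtp and chr11:58214893-58214952 for Irgm2 on the plus strand. The first match began between 30 and 64 bases before the start of transcription in all 6 genes, nearest in Irgm1 and farthest in Irgm2. Gbp3 and Irgm1 each held a second, overlapping match. The stretches of the neighbouring genes Igtp and Irgm2 were identical at 58 of 60 bases. For Irgm2, the bases after the RefSeq start were not found in its GENCODE transcripts. A match describes these letters and does not show that a factor was bound.

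Of the 10 genes, all had a higher CPM in library 2 than in library 1, and 9 stood 2-fold or more higher there. Among the 20681 genes that had at least 10 reads in sum, 3.51% reached that ratio, and since the ratio chose the genes, nothing is read from the comparison. Their median ratio was 4.90-fold (log2 2.29), against a median log2 ratio of −0.04 over all genes. Ratios are of CPM, library 2 over library 1, with 0.5 read added to each count, and their 95% intervals are exact binomial intervals that cover counting error only. Library 2 held 39003197 counted reads and library 1 held 50121771. Because RNA came from many cells, fewer expressing cells and less RNA per cell cannot be told apart.

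The 3 regulators stood between 3.79- and 5.59-fold higher in library 2. Igtp had 2125 reads (54.5 CPM) in library 2 and 488 reads (9.74 CPM) in library 1, a ratio of 5.59 (5.07 to 6.19). Irgm2 had 2548 reads (65.3 CPM) in library 2 and 863 reads (17.2 CPM) in library 1, a ratio of 3.79 (3.51 to 4.10). Irgm1, whose product is also known for its part in autophagy, had 1793 reads (45.97 CPM) in library 2 and 576 reads (11.5 CPM) in library 1, a ratio of 3.998 (3.64 to 4.40). The counting intervals of the ratios of Irgm1 and Irgm2 overlapped, and that of Igtp lay above both.

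The effectors Iigp1 and Ifi47, and Gm4841, differed more between the libraries. Iigp1, whose product loads onto the parasite vacuole, had 8584 reads (220.1 CPM) in library 2 and 754 reads (15.04 CPM) in library 1, a ratio of 14.6 (13.6 to 15.8). Ifi47 was scarce, with 74 reads (1.90 CPM) in library 2 and 5 reads (0.0998 CPM) in library 1, a ratio of 17.4 (7.79 to 60.3). Its level in library 1 was not far above the 0.0599 CPM that a count of 0 allows (3 reads). Gm4841, an IRG relative that RefSeq also lists as Ifgga3, had 2031 reads (52.1 CPM) in library 2 and 18 reads (0.359 CPM) in library 1, a ratio of 141 (91.5 to 245). This was the widest ratio of the 10 genes, and its counting interval lay above that of each of the others.

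Among the GBPs, Gbp2 and Gbp7 lay at opposite ends. Gbp2, whose product is recruited to parasite vacuoles, had 1037 reads (26.6 CPM) in library 2 and 77 reads (1.54 CPM) in library 1, a ratio of 17.2 (13.7 to 22.1). Gbp7 had 1672 reads (42.9 CPM) in library 2 and 1332 reads (26.6 CPM) in library 1, a ratio of 1.61 (1.5 to 1.74). Gbp7 was thus the one gene of the 10 under 2-fold, and per length its level in library 1 (13.0 TPM) was above that of Gbp2 (1.68 TPM). Gbp4 had 5048 reads (129 CPM) in library 2 and 1592 reads (31.8 CPM) in library 1, a ratio of 4.07 (3.85 to 4.31). Gbp3 had the fewest reads of the 4 GBPs, with 48 reads (1.23 CPM) in library 2 and 14 reads (0.279 CPM) in library 1, a ratio of 4.30 (2.39 to 8.65). All 10 genes reached 1 CPM in library 2, and 7 did so in library 1, the exceptions being Gbp3, Ifi47 and Gm4841.

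**Figure D1:**
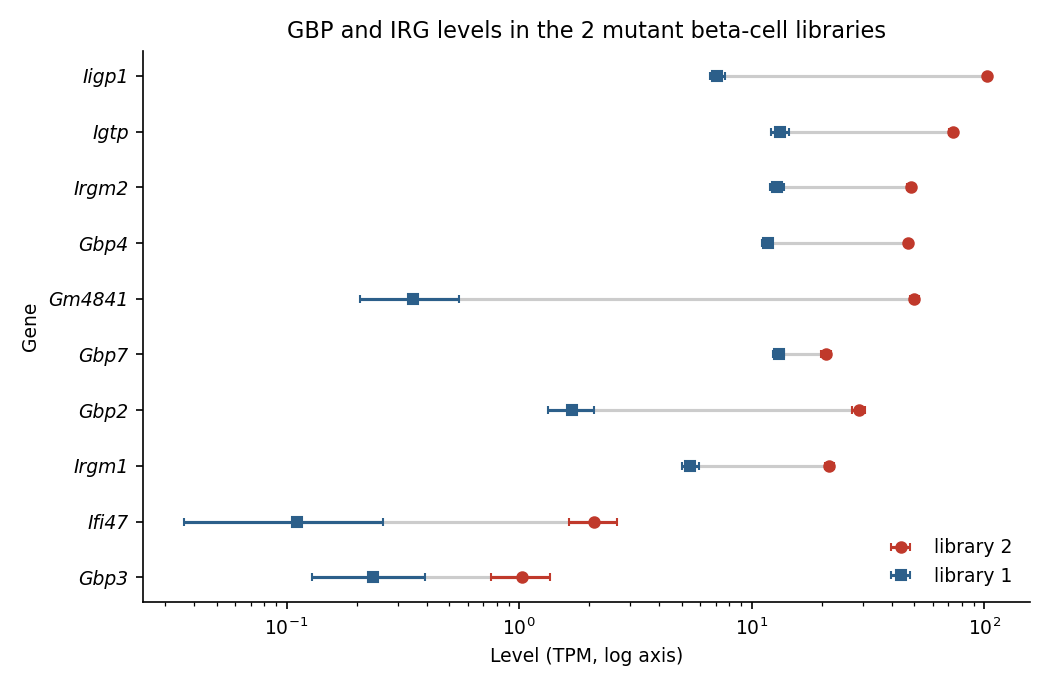
Level of each of the 10 GTPase genes in TPM (log axis) in library 2 (circles) and library 1 (squares), with exact 95% counting intervals, ordered by the mean of the libraries. Every circle lies to the right of its square, and the distance is shortest for Gbp7 (20.8 TPM in library 2 against 13.0 TPM in library 1) and longest for Gm4841 (49.9 TPM in library 2 against 0.348 TPM in library 1).

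To compare levels between genes, the deposited TPM values were used, which scale each count by gene length. The mean level was 55.0 ± 67.7 TPM for Iigp1 (SD, n = 2, here and for the other means), 43.3 ± 42.5 TPM for Igtp, 30.5 ± 25 TPM for Irgm2 and 29.35 ± 25 TPM for Gbp4. Gm4841 had 25.15 ± 35.1 TPM, Gbp7 had 16.9 ± 5.48 TPM, Gbp2 had 15.2 ± 19.2 TPM and Irgm1 had 13.5 ± 11.4 TPM. Ifi47 and Gbp3 closed the order with 1.10 ± 1.40 TPM and 0.631 ± 0.559 TPM. Among the 9 pairs of neighbours in this order, the step from Irgm1 down to Ifi47 was the one larger than the wider SD of its pair. Neighbours among the upper 8 genes were thus not separated beyond the spread of the libraries.

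Each library had an order of its own. In library 2, Iigp1 led with 103 TPM (place 887 among all listed symbols) and Igtp followed with 73.4 TPM. The counting intervals of Gm4841 (49.9 TPM), Irgm2 (48.2 TPM) and Gbp4 (47.0 TPM) overlapped in that library. In library 1, Igtp (13.3 TPM), Gbp7 (13.0 TPM) and Irgm2 (12.9 TPM) led with overlapping intervals, and Iigp1 came after Gbp4 with 7.12 TPM (place 9644). Summed over the 10 genes, TPM came to 396 in library 2 and 65.8 in library 1. The 6 IRG genes made up 298 of it in library 2 and 39.15 in library 1, and the 4 GBP genes made up 97.6 in library 2 and 26.6 in library 1. Iigp1 alone held 26.0% of the sum in library 2 and 10.8% in library 1.

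**Figure D2:**
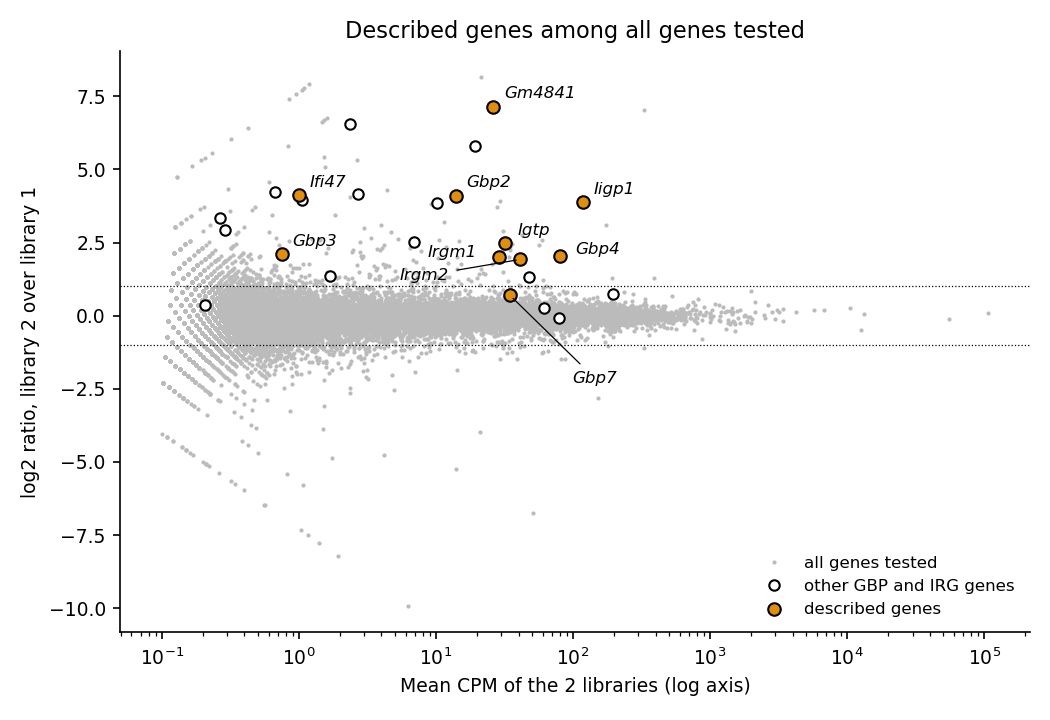
log2 ratio of CPM, library 2 over library 1, against the mean CPM of the libraries (log axis) for the 20681 genes that had at least 10 reads in sum (grey), with the 10 described genes filled and other GBP and IRG genes open. Dotted lines mark 2-fold. All of the filled points but Gbp7 (log2 0.69) lie above the upper line, the highest being Gm4841 (7.14).

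The rest of the 2 families, which the choice of genes had left out, was then examined. The reads of each gene in library 2 were set against those in library 1 with an exact two-sided binomial test given the totals, and p-values were adjusted by Benjamini-Hochberg across all 20681 genes. A call needed an adjusted p under 0.05 together with a ratio of 2-fold or more in either direction. The calls are about these libraries rather than conditions and have no replicate check. Over all genes, 1.91% were called higher and 2.40% lower in library 2. Of 18 further family genes found, 15 had 10 or more reads summed, and 11 of these were called higher and 0 lower in library 2. The median ratio of the 15 was 2.91 on the log2 scale. The list was drawn up knowing that their relatives differed, so this count is not independent of the choice.

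Among the further GBPs, Gbp8, the highest per length, and Gbp9 were not called. Gbp8 had 245 CPM in library 2 against 147 CPM in library 1 (1.665-fold, interval 1.615 to 1.72), and its levels of 194 TPM in library 2 and 118 TPM in library 1 exceeded every gene described above in the same library. Gbp9 had 67.0 CPM in library 2 against 56.1 CPM in library 1 (1.195-fold, interval 1.13 to 1.26). Gbp11, annotated as a polymorphic pseudogene, had 68.25 CPM in library 2 against 27.1 CPM in library 1 (2.52-fold) and was called higher. Gbp10 was called higher with 19.0 CPM in library 2 against 1.32 CPM in library 1 (14.3-fold), as were Gbp6 with 11.85 CPM in library 2 against 2.07 CPM in library 1 (5.69-fold) and Gbp5 with 2.44 CPM in library 2 against 0.958 CPM in library 1 (2.53-fold). Gbp2b, a close relative of Gbp2, was called higher with 20 reads in library 2 and 3 reads in library 1 (7.53-fold, interval 2.54 to 45.0). Gbp6 and Gbp10 have 70.7% and 84.1% of their words (50-base stretches of transcript) in common with other genes, so their single counts are uncertain.

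Among the further IRG genes, F830016B08Rik (RefSeq synonym Ifgga4) stood at 37.9 CPM in library 2 against 0.678 CPM in library 1 (55.1-fold, interval 39.8 to 81.0). Its neighbour Gm4951 (Ifgga2) had 50 reads in library 2 and 3 reads in library 1 (18.5-fold, interval 6.92 to 107). Tgtp1 had 182 reads in library 2 and 2 reads in library 1, and Tgtp2 had 199 reads in library 2 against 14 reads in library 1. These copies, which encode the effector Irgb6, have 81.2% and 86.6% of their words in other genes, mostly in each other, so their counts are uncertain singly. Gm12250, known as Irgb10 and annotated as a processed pseudogene in GENCODE, had 78 reads in library 2 and 6 reads in library 1 (15.5-fold), and Gm5431 had 19 reads in library 2 against 2 reads in library 1 (10.02-fold, interval 2.945 to 108). Irgq, a distant relative not known to respond to interferon, had 76.5 CPM in library 2 against 81.1 CPM in library 1 (0.944-fold) and was not called. 9930111J21Rik2 had 9 reads in each library, and 9930111J21Rik1 had 4 reads in library 2 and 0 in library 1. Irgc1, a gene of the testis, and Gvin1 had 0 reads in both. Gvin1, 9930111J21Rik1 and 9930111J21Rik2 have 99.2%, 83.2% and 59.8% of their words in other genes, so their low counts are uncertain too.

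**Figure D3:**
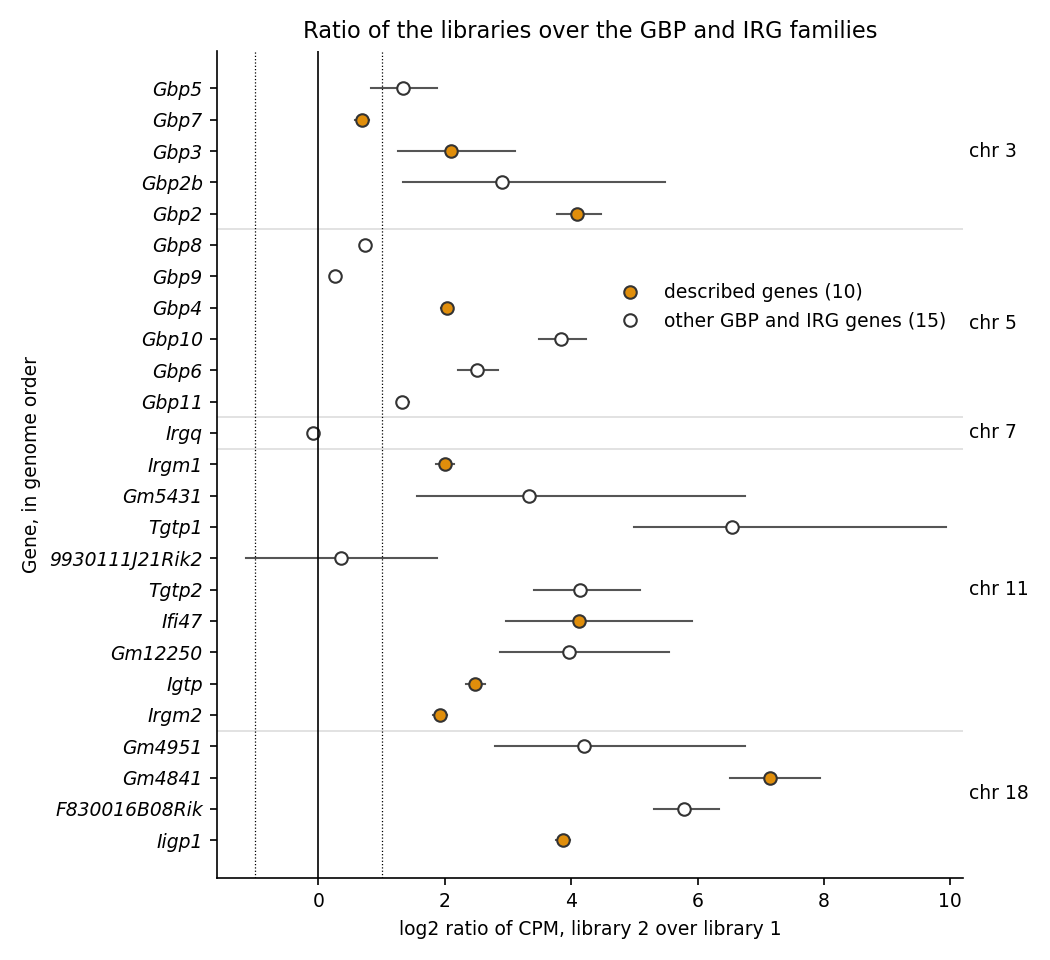
log2 ratio of CPM, library 2 over library 1, with exact 95% counting intervals (lines) for the 10 described genes (filled) and 15 other GBP and IRG genes (open), in genome order by chromosome. Dotted lines mark 2-fold in either direction. Each cluster on chromosomes 3, 5, 11 and 18 holds genes beyond the upper line, while Gbp7, Gbp8, Gbp9, Irgq and 9930111J21Rik2 lie inside it.

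The genes lie in tight clusters (GRCm38, GENCODE M21). On chromosome 3, Gbp7 (142530342 to 142550149, 11 merged exons), Gbp3 (142560026 to 142573209, 14) and Gbp2 (142620602 to 142638008, 11) follow each other on the plus strand. Gbp4 (105115767 to 105139586, minus strand, 11 merged exons) is on chromosome 5. On chromosome 11, Irgm1 (48861968 to 48871683, minus strand, 4 merged exons) and Ifi47 (49076587 to 49096974, plus strand, 6) bracket one cluster, and Igtp (58199556 to 58207591, 3) and Irgm2 (58199618 to 58222782, 4) form another on the plus strand. Gm4841 (60268305 to 60273272, minus strand, 2 merged exons) and Iigp1 (60376027 to 60392634, plus strand, 4) lie on chromosome 18. The 10 genes have between 0.4% (Irgm1) and 12.7% (Gbp7) of their words in common with other genes. For Igtp, Irgm2 is the main partner (11.8% of words), and an exon annotated to Irgm2 covers 8.0% of the exon bases of Igtp.

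The nearest gene not on the family list, at a mean of 1 CPM or more, was compared on each side of each cluster. Of these 10 flanking genes, 8 were not called, with log2 ratios from −0.45 (Gm16170) to 0.58 (Chsy3). On chromosome 3, Kyat3, a kynurenine aminotransferase gene 63.0 kb beyond Gbp2, was called higher with 83.7 CPM in library 2 against 36.05 CPM in library 1 (2.32-fold, interval 2.19 to 2.46). The gene on the other side of that cluster, Pdlim5, had 41.4 CPM in library 2 against 46.1 CPM in library 1 and was not called. On chromosome 18, BC023105, a pseudogene in RefSeq 49.1 kb beyond Iigp1, was called higher with 55.1 CPM in library 2 against 3.59 CPM in library 1 (15.3-fold, interval 13.2 to 17.95). It is also the main partner of Gm4841 in shared words (6.2% of the words of Gm4841), so it is not shown to lie outside the families. The share of its own words found in other genes was not computed, so how uncertain its count is remains unknown.

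Interferon transcripts themselves were at or near 0 in both libraries. Ifng, which encodes interferon gamma, and Ifnb1 had 0 reads in each, which allows up to 0.0769 CPM in library 2 against 0.0599 CPM in library 1. Of the 8 interferon genes 1 had enough reads to be tested, Ifnk with 4 reads in library 2 and 14 reads in library 1, and it was not called. All 8 summed to 0.256 CPM in library 2 against 0.439 CPM in library 1. All 20 receptor, kinase, STAT, IRF and inhibitor genes reached 1 CPM in both libraries, and their median log2 ratio was 0.03. Of them 1 was called higher and 0 lower. The receptor genes Ifngr1 (23.6 CPM in library 2 against 24.0 CPM in library 1) and Ifngr2 (17.9 CPM in library 2 against 19.5 CPM in library 1) and the kinase genes Jak1 (174 CPM in library 2 against 158 CPM in library 1) and Jak2 (38.3 CPM in library 2 against 39.7 CPM in library 1) were not called. Irf1 had 89.5 CPM in library 2 against 45.5 CPM in library 1 (log2 0.98) and was not called, nor was Irf8 (log2 0.98). With edgeR's TMM scaling their log2 ratios came to 1.02 and 1.03, past the 2-fold line, and both were called. Stat3 and Ptpn11, the highest of the list, had log2 ratios of 0.29 and 0.15.

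Other genes that interferon gamma is known to induce were called higher in part. Of 24 such genes, 21 were tested, 10 were called higher and 0 lower, and the list median was 0.81 on the log2 scale. B2m, the light chain of MHC class I, had 84.4 CPM in library 2 against 41.8 CPM in library 1 (2.02-fold, interval 1.91 to 2.135). The peptide transporter gene Tap1 had 46.4 CPM in library 2 against 20.2 CPM in library 1 (2.30-fold), and Cd274, which encodes PD-L1, had 32.5 CPM in library 2 against 11.8 CPM in library 1 (2.74-fold). The immunoproteasome genes Psmb8, Psmb9 and Psmb10 stood 2.49-, 2.53- and 2.27-fold higher. The others called were Nlrc5, Bst2, Cxcl10 and Cxcl11. The MHC class I genes H2-K1 (371 CPM in library 2 against 287 CPM in library 1) and H2-D1 (272 CPM in library 2 against 235 CPM in library 1) were the highest of the list and were not called. Ratios of the 10 called genes ran from 2.02 (B2m) to 4.67 (Nlrc5).

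Antiviral genes known to respond to type I interferon were also called higher in part. Of 20 tested, 8 were called higher and 0 lower, with a list median of 0.75 on the log2 scale. Oasl2 had 17.7 CPM in library 2 against 7.16 CPM in library 1 (2.475-fold), and Rsad2, which encodes viperin, had 16.5 CPM in library 2 against 4.19 CPM in library 1 (3.93-fold). Ifit1 had 8.87 CPM in library 2 against 4.19 CPM in library 1 (2.115-fold), Xaf1 had 8.72 CPM in library 2 against 3.53 CPM in library 1 (2.465-fold), Irf7 had 8.92 CPM in library 2 against 2.93 CPM in library 1 (3.04-fold) and Rtp4 had 6.69 CPM in library 2 against 2.015 CPM in library 1 (3.31-fold). The remaining 2 had the widest ratios of the list, Zbp1 with 5.31 CPM in library 2 against 0.658 CPM in library 1 (7.96-fold, interval 5.56 to 12.0) and Ifit3 with 46 reads in library 2 and 5 reads in library 1 (10.9-fold, interval 4.72 to 38.1). Trim25 and Ddx58, the highest of the list, had log2 ratios of −0.12 and 0.24 and were not called.

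Of the tested genes that work with these GTPases, 0 were called. Of 14 genes for ATG8 conjugation and ubiquitin marking, which place IRG and GBP proteins on vacuoles, 0 were called, and the median log2 ratio was 0.09. The highest were the adaptor Sqstm1 with 584 CPM in library 2 against 538 CPM in library 1, and the ATG8 gene Gabarap with 275.0 CPM in library 2 against 256 CPM in library 1. Of 6 genes for prenylation and the processing of prenylated proteins 0 were called (median 0.02), with Zmpste24 at 128 CPM in library 2 against 123 CPM in library 1 and Pggt1b at 58.7 CPM in library 2 against 58.9 CPM in library 1. Of 8 inflammasome genes 6 were tested and 0 called (median −0.28), and the list was low. Aim2 and Nlrp3 had too few reads to be tested. Gsdmd, whose product forms the pyroptotic pore, had 8.08 CPM in library 2 against 8.18 CPM in library 1, and Il18 had 2.74 CPM in library 2 against 3.81 CPM in library 1.

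**Figure D4:**
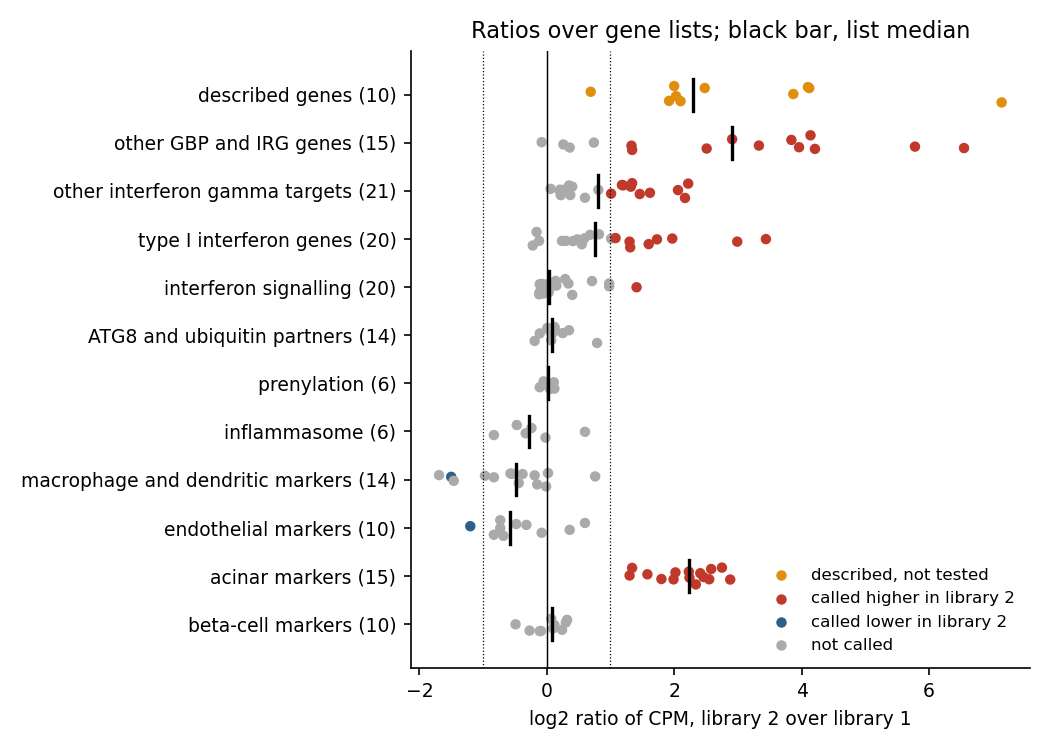
log2 ratio of CPM, library 2 over library 1, for the tested genes of each list (points) with the list median (black bar) and the number of genes in brackets. The medians of the GBP and IRG rows and of acinar markers (2.24) lie furthest to the right. Signalling, partner and beta-cell rows centre near 0. Macrophage and dendritic markers and endothelial markers have medians to the left of 0, with a few points to the right of it.

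Over 2 libraries the likeness of genes reduces to the size of one ratio. Among genes outside the lists with a mean of 10 CPM or more, those with a log2 ratio nearest to the median of the 10 GTPase genes were 2210010C04Rik (2.33), Inpp4b (2.00), Clps (1.99), Klf2 (2.60) and Rnase1 (2.60). Inpp4b encodes a phosphoinositide phosphatase, Clps the colipase of pancreatic juice and Klf2 a transcription factor. The acinar list, with a median log2 ratio of 2.24, does not hold every gene of acinar cells. A gene outside the lists, such as Clps, 2210010C04Rik or Rnase1, is thus not shown to lie outside that cell type. Clps had 22.9 CPM in library 2 against 5.75 CPM in library 1, and Klf2 had 101 CPM in library 2 against 16.7 CPM in library 1. The levels of 2210010C04Rik were 58.3 CPM in library 2 against 11.55 CPM in library 1. Rnase1 had 18.1 CPM in library 2 against 2.97 CPM in library 1, and Inpp4b had 49.0 CPM in library 2 against 12.25 CPM in library 1.

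Markers of cell types were set beside these results. Of 10 beta-cell markers 0 were called, and their median log2 ratio was 0.08, with 6 of the 10 above 0. Ins2 stood at 110908 CPM in library 2 against 103810 CPM in library 1. Single ratios ran from 0.714-fold (Slc2a2, interval 0.703 to 0.725) to 1.25-fold (Ucn3, interval 1.215 to 1.28). Macrophage and dendritic markers summed to 56.9 CPM in library 2 against 65.1 CPM in library 1, with 5 of 15 at 1 CPM or more in both and Ptprc at 0.487 CPM in library 2 against 0.878 CPM in library 1. Of 14 tested, 0 were called higher and 1, Lyz2, lower. C1qa made up 35.3 CPM of the sum in library 2 and 39.1 CPM in library 1. Of the 14 ratios 2 were above 1, those of Cd14 (1.69-fold) and H2-Ab1 (1.01-fold), neither of them called. Lymphocyte markers summed to 0.744 CPM in library 2 against 1.74 CPM in library 1, with Cd3d, Cd8a and Gzmb at 0 reads in both and 0 of 14 at 1 CPM or more in both. Endothelial markers (23.95 CPM in library 2 against 32.6 CPM in library 1) and mesenchymal markers (11.3 CPM in library 2 against 17.1 CPM in library 1) also summed to less in library 2. Pecam1, Col1a2, Pdgfra and the lymphocyte marker Cd79a were called lower. The endothelial receptor genes Kdr (1.52-fold) and Flt1 (1.285-fold) had ratios above 1 and were not called. The part of these cell types in the GTPase ratios was not tested.

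Other measures did move with the GTPase genes. All 15 acinar markers and Xist were called higher in library 2. Of the Y-linked genes, Kdm5d was called lower. The part of acinar RNA, or of the sexes of the mice behind each library, in the GTPase ratios was not tested. Ductal markers summed to 1472 CPM in library 2 against 1171 CPM in library 1 with 0 of 9 called. Spp1 made up 967 CPM of that sum in library 2 and 659.5 CPM in library 1. Of the 9 ductal log2 ratios 7 were above 0, the largest being that of Krt19 (1.94-fold, interval 1.52 to 2.50). Alpha-cell markers summed to 1158 CPM in library 2 against 1401 CPM in library 1 with 0 of 7 tested called, and delta-cell markers to 1247 CPM in library 2 against 1660 CPM in library 1 with Lepr called higher.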

How the data were processed

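Per the file headers, the authors deposited a raw read count, a TPM value and a CPM value for each of 55487 genes in each of 2 libraries. Per the submitters' processing notes, cutadapt 2.10, STAR 2.7.8a, featureCounts 2.0.2 and GRCm38.p6 were used. Settings, strandedness and the treatment of multi-mapped reads are not given in the sources used. The TruSeq DNA kits of the labels do not mark strand. The deposited CPM equals the count over the library total. The length behind the deposited TPM was checked against the merged exons of GENCODE release M21 in 16229 genes of library 1. It lay within 1% in 98.35% of them. Of the 10 GTPase genes 7 were checked, and all 7 lay within 1%. The rest had too few reads in library 1 to be checked. A total of 109 symbols had several identifiers, and the one with most reads was kept for values given by symbol. The test and the counts over all genes used every identifier.

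Ratios, exact Clopper-Pearson 95% intervals, exact binomial tests with Benjamini-Hochberg adjustment and the 3-read limit for a count of 0 were computed with SciPy 1.17.1 in Python 3.11.15. The per-gene test was tested on simulated data that held counting error only. That simulation does not check the calls against spread between libraries. edgeR's quasi-likelihood test needs a second group and was not run. edgeR 4.0.16 and DESeq2 1.42.0 gave other scalings. The genes, the lists and the comparisons were chosen with earlier results of these data known. Named genes were the 10, every other family gene found, the flanking genes and the 5 most alike in ratio. Of each list other than the cell-type and Y-linked markers, the called genes (at most 6 by mean CPM in full) and the 2 highest not called were named. The marker lists did not follow this rule, and most of their genes are not named. Irf1, Irf8, the genes listed after those 6, the targeted genes, the markers and any other gene beyond this rule were named after their values were seen. Protein sequences were not used here, and the values of 1 signalling gene are not reported here.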

Additional observations from a re-analysis of the deposited data

How the results depend on the processing

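No paired analysis was possible because both libraries belong to 1 group. The median log2 ratio of the 10 GTPase genes lay between 2.25 and 2.34 under the 6 alternatives of scaling, added reads and filter (with 100 or more reads summed, Gbp3 and Ifi47 dropped out, leaving 8 genes, 7 of them at 2-fold or more), and all 20 single-gene ratios recomputed with TMM scaling or 2 reads added stayed above 0 and inside their counting intervals. TMM and DESeq2 scaling shifted the median of all genes by 0.04 (log2). Signalling genes called higher numbered 3 with TMM and 3 with DESeq2 scaling, 4 at 1.5-fold and 0 at 4-fold, against 1 reported. Further family genes called numbered 7 with 100 or more reads summed, and 7 of 10 among those that have at most 50% of their words in other genes (chosen after seeing the data), against 11. At 4-fold, 3 interferon gamma targets and 2 type I genes were called. All genes called in either direction numbered 892, or 335 with 100 or more reads, 1664 at 1.5-fold and 300 at 4-fold. Leaving out either library gave a median level of 6.28 to 37.9 TPM and 7 to 10 genes at 1 CPM. With 1 mismatch allowed, 7 genes held the response element core, as did 62.9% of a sample of all windows. Genes with few reads in library 1, such as Ifi47 (5) and Gm4841 (18), have wide ratio intervals, and counting error is the only error these cover.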
